A study of Mus musculus with 20 samples.

Results

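The genes described here build the M-band and the Z-disc, the anchoring lattices of the muscle sarcomere. The list held 8 genes, namely Myom1 and Myom2 of the M-band, Actn2, Actn3, Ldb3, Tcap and Myoz1 of the Z-disc, and Ttn, which spans both. They were chosen by gene symbol with earlier results of these same arrays known, so their values are a description and give no independent support to a difference seen before. Of the 8 genes, 7 had a probe set carrying that symbol alone. No probe set carried Ttn, which was not analysed here. Actn3 (gene ID 11474) had 2 probe sets, a bright and a dim one. The other 6 genes, Myom1 (17929), Myom2 (17930), Actn2 (11472), Ldb3 (24131), Tcap (21393) and Myoz1 (59011), had 1 each, giving 8 probe sets of the 12588 non-control probe sets of the array. All 8 were among the 7204 probe sets tested, which reached a scaled signal of 200 on at least 5 of the 20 arrays.

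Total RNA came from extraocular muscle (EOM), which moves the eye, and from leg muscle of 8-week-old mice that were wild-type controls or mdx, the dystrophin-deficient mouse used as a model of Duchenne muscular dystrophy. Each of the 4 groups (EOM control, EOM mdx, leg control, leg mdx) held 5 single-colour Affymetrix arrays. The labels name the gastrocnemius and soleus as the source of the control leg RNA and give only leg muscle for mdx, and they do not name the strain. Control and mdx arrays also carry different description labels, so anything that went with those labels, or with the leg muscles taken, cannot be told apart from genotype. Whether the 5 replicates of a group were 5 separate animals is not stated, so the tests weigh differences against the scatter of these arrays alone, and that scatter may be technical. Arrays are numbered within each group by the replicate number in their label.

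Sarcomeres run from Z-disc to Z-disc. At the Z-disc, alpha-actinin cross-links the thin filaments of neighbouring sarcomeres and PDZ, LIM and calsarcin proteins dock onto it, while at the M-band, in the middle of the sarcomere, myomesins tie the thick filaments into register and titin connects both lattices. Several of these proteins have isoforms tied to fibre type. Alpha-actinin-3, calsarcin-2 (Myoz1) and M-protein (Myom2) are best known from fast fibres, whereas myomesin-1 and alpha-actinin-2 are made more widely. Extraocular muscles differ from limb muscles in fibre types and are largely spared in dystrophin deficiency.

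Some properties of the arrays touch what follows. The share of probe sets at a signal of 200 or more was 47.2% to 52.0% per array, and no pair of arrays was identical. Dmd, the gene mutated in mdx, read 268 ± 47.4 (SD, n = 5) in EOM control, 119 ± 31.7 in EOM mdx, 149 ± 40.2 in leg control and 77.5 ± 32.3 in leg mdx. The labelled tissue carried skeletal muscle RNA in every group. The summed signal of the 7 general muscle fibre genes on the array ran from 55369 to 83695 in EOM control, 63506 to 104194 in EOM mdx, 45116 to 139305 in leg control and 35433 to 75025 in leg mdx. One fast fibre gene, Tnnc2, was under the signal floor of 50 on all 20 arrays, so some probe sets of this early design may not report their gene. Leg control 1 and leg control 4 stood apart. The summed signal of 8 slow fibre genes was 94719 on leg control 1 and 3388 on leg control 4, and leg control 1 correlated least with the rest of its group (mean 0.892, against 0.898 to 0.931 for the other arrays). Where leaving out both arrays changes a call, the value without them is given for the named genes. Some small uncalled log2 differences also moved by more than 1.5 times. In leg mdx minus leg control, Myom2 went from -0.02 to -0.14 and Myom1 from -0.14 to -0.06. Myom1 in EOM control minus leg control went from -0.07 to 0.005.

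**Figure D1:**
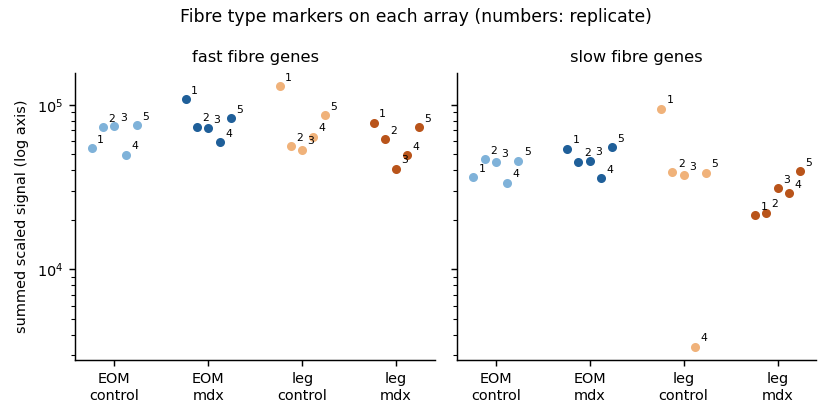
Summed scaled signal of 10 fast fibre genes and 8 slow fibre genes (arbitrary units, log axis) on each of the 20 arrays, numbered by replicate. Leg control 4 lies far below every other array for the slow genes at 3388, and leg control 1 lies highest for both lists.

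Myom2, which encodes the M-band protein M-protein, separated the 2 muscles most widely. It read 2617, 2617, 2348, 1960 and 3486 on leg control arrays 1 to 5 and 3523, 2644, 2204, 2688 and 1860 on leg mdx arrays 1 to 5. On EOM control arrays it read 96.4, 25.3, 16.8, 41.1 and 19.7, with 4 of 5 under the floor. On EOM mdx arrays it read 77.1, 106, 128, 177 and 255, with 0 under the floor. Every EOM array of either genotype lay below every leg array, by a wide margin. The group means were 39.9 ± 33.0 (SD, n = 5) in EOM control, 149 ± 69.8 in EOM mdx, 2606 ± 561 in leg control and 2584 ± 625 in leg mdx. In controls the signal was at least 44.9-fold lower in EOM than in leg (log2 difference -5.49, SE 0.27, limma adjusted p = 2.36e-12). In mdx it was 18.5-fold lower (95% interval 12.6 to 27.2, log2 difference -4.21, limma adjusted p = 2.68e-10). Both differences passed under every alternative setting tried, including without leg control 1 and 4, and the control value ranged from -6.27 with a floor of 20 to -4.68 with a floor of 100. Only 1 of 10 EOM arrays reached 200, so Myom2 entered the test through its leg signal and its difference between muscles was bound to be large. In bulk muscle RNA, fewer fibres that make a transcript and less of it per fibre cannot be told apart.

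Myom2 was also the member whose values differed most between mdx and control EOM. Only EOM mdx 1, at 77.1, lay below the highest control, EOM control 1 at 96.4, and the other 4 mdx arrays exceeded all 5 controls. The log2 difference was 1.26 (SE 0.27, interval 0.70 to 1.81), which is at least 2.39-fold since the controls sat at the floor. Its unadjusted p in limma was 0.000113 and its adjusted p was 0.074, short of the 5% threshold. The adjusted p was 0.0209 without EOM control 1, 0.0213 without EOM mdx 1, 0.0147 with a floor of 20 (log2 difference 2.04) and 0.0239 with array weights. With a floor of 100 it was 0.927 (0.52), since that floor lifts most EOM values to the same level. It was 0.15 with the replicate number as a block and 0.0917 without leg control 1 and 4. Centred on muscle fibre genes it was 0.837 (0.93). Leaving out any of the other 18 arrays gave no call, with an adjusted p of up to 0.267. In leg muscle the same contrast gave -0.02 (interval -0.58 to 0.54, adjusted p = 0.972), with overlapping groups.

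The mdx effect on Myom2 differed between muscles by -1.28 log2 units, leg minus EOM (SE 0.38, interval -2.06 to -0.49, limma adjusted p = 0.0469). This was the 1 member of 7 called in that contrast, in which 6.22% of all tested probe sets were called. The call held when EOM control 1, EOM mdx 1, EOM mdx 2, leg control 4 or leg mdx 1 was left out, and was lost on leaving out any of the other 15 arrays, when the adjusted p ran from 0.0583 to 0.0966. Dropping leg control 1 and 4 together gave 0.0615 (-1.40), and with the replicate number as a block 0.0657. With a floor of 100 the difference was -0.54 (0.379).

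Myom1, the myomesin that cross-links thick filaments in striated muscle of all types, did not follow Myom2. It read 5425, 5995, 6917, 5871 and 6083 on EOM control arrays, 6365, 6912, 7116, 5756 and 5105 on EOM mdx, 9247, 4975, 5958, 5085 and 7353 on leg control, and 6544, 5502, 4371, 6191 and 6531 on leg mdx. All 4 groups overlapped, with leg control 1 the brightest array. EOM minus leg was -0.07 in controls (interval -0.40 to 0.26, adjusted p = 0.824) and 0.11 in mdx (interval -0.22 to 0.44, adjusted p = 0.718). The mdx effect was -0.14 in leg (interval -0.47 to 0.19) and 0.04 in EOM. These intervals exclude a change as large as that of Myom2 between muscles in either genotype.

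**Figure D2:**
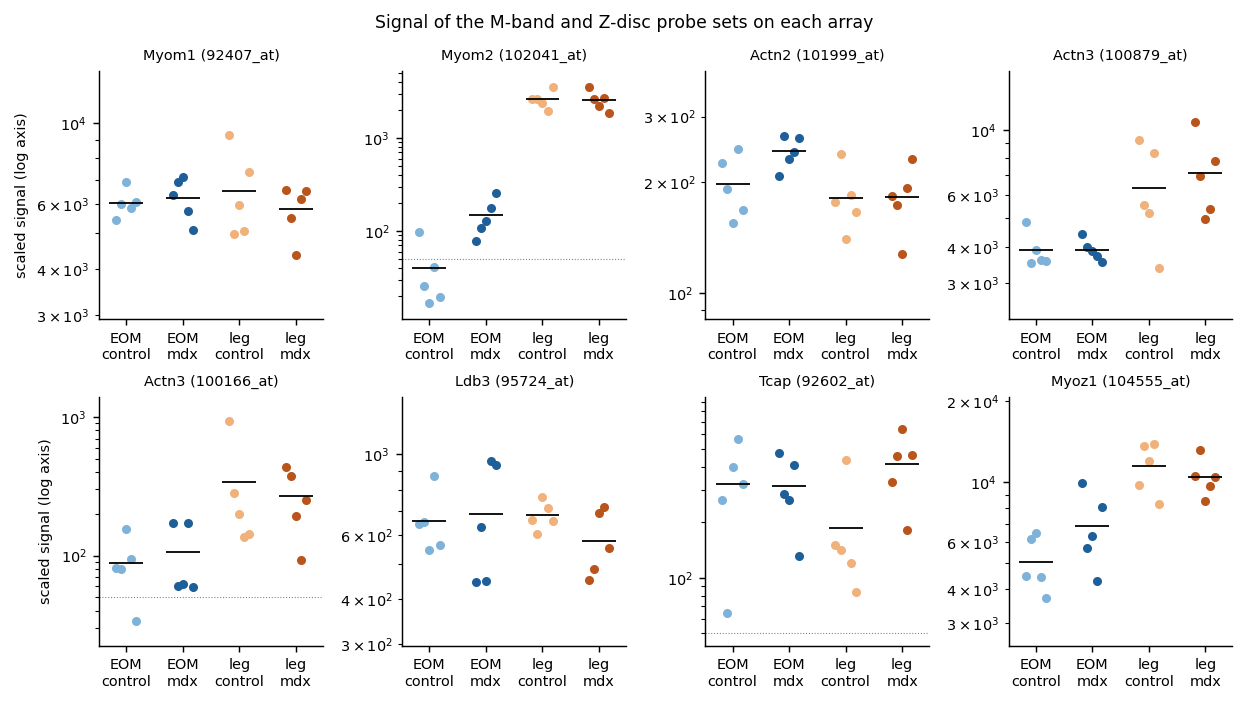
Scaled signal of each member's probe set (arbitrary units, log axis) on every array of the 4 groups, with the group mean as a black line and the floor of 50 dotted. Myom2 falls into 2 separate bands by muscle, while Myom1 and Ldb3 overlap in all 4 groups.

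The ratio of Myom2 to Myom1 on the same array does not depend on an array's scaling factor apart from the floor. It restates the Myom2 difference, since Myom1 hardly differed between muscles. Its log2 value, each probe set in its own units, ran from -7.11 to -5.81 in EOM control, -6.37 to -4.32 in EOM mdx, -1.82 to -0.93 in leg control and -1.81 to -0.89 in leg mdx. The EOM mean minus the leg mean was -5.42 log2 units in controls and -4.32 in mdx. Within EOM the mdx mean was 1.22 higher, and within leg 0.12 higher.

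**Figure D3:**
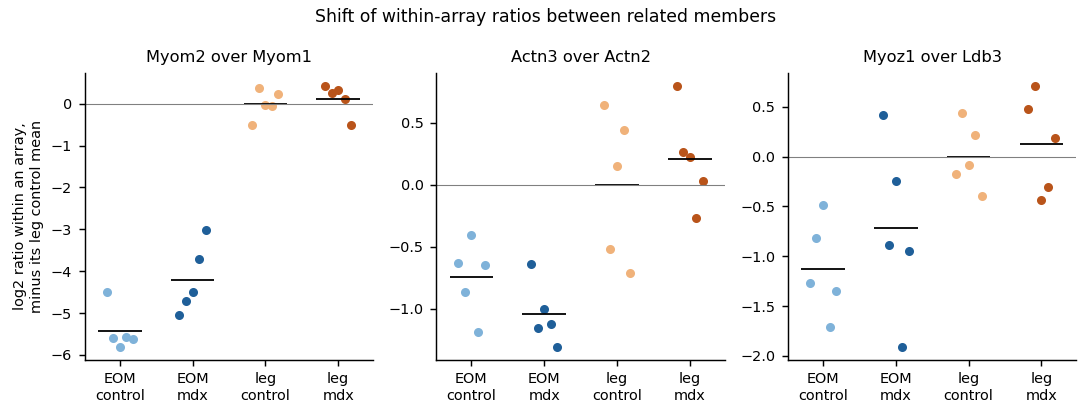
Log2 ratio of 2 members on the same array, minus the leg control mean, for Myom2 over Myom1, Actn3 over Actn2 and Myoz1 over Ldb3, by group. The Myom2 to Myom1 ratio separates EOM from leg arrays without overlap, with a difference of -5.42 log2 units between the control means. That difference is a lower bound in size, since most EOM control values of Myom2 were set to the floor.

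Among the Z-disc genes, the alpha-actinins are the thin-filament cross-linkers. Actn2 is the widely made isoform and Actn3 the fast fibre one. Actn2 was dim. Its signal was 197 ± 38.0 (SD, n = 5) in EOM control, 241 ± 24.5 in EOM mdx, 181 ± 35.8 in leg control and 181 ± 37.1 in leg mdx, and reached 200 on 7 of 10 EOM and 2 of 10 leg arrays. No contrast was called. EOM minus leg was 0.12 in controls (interval -0.33 to 0.57) and 0.43 in mdx (interval -0.02 to 0.88), and the mdx effect in leg had an interval from -0.45 to 0.45.

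Actn3, by its bright probe set, read 4848, 3525, 3915, 3595 and 3584 on EOM control arrays and 4437, 4005, 3856, 3715 and 3561 on EOM mdx. It read 9242, 5543, 5200, 8359 and 3395 on leg control and 10625, 6952, 4990, 5371 and 7873 on leg mdx. All EOM mdx arrays lay below all leg mdx arrays, while leg control 5, at 3395, lay below every EOM control array. In mdx, Actn3 was 1.77-fold lower in EOM (log2 difference -0.82, SE 0.22, limma adjusted p = 0.0111), a call that held under every alternative. In controls the difference was -0.63 (interval -1.08 to -0.17, adjusted p = 0.0535). Leaving out leg control 5 gave -0.83 (0.00636), and leaving out leg control 1 and 4 gave -0.25 (0.469). The call in controls was also gained without EOM control 1 (0.0429), leg mdx 1 (0.0374) or leg mdx 3 (0.0473). With the replicate number as a block it was also called (0.0241), as it was with array weights (0.0324), a filter at 500 (0.0428) and the mean of both probe sets (-1.09, 0.0202). The mdx effect in Actn3 was 0.21 in leg (interval -0.25 to 0.67), or 0.58 (adjusted p = 0.0659) without leg control 1 and 4, and 0.01 in EOM.

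The dim Actn3 probe set passed the filter only through leg arrays, with 0 of 10 EOM arrays and 6 of 10 leg arrays at 200 or more. Its signal was 88.8 ± 43.6 (SD, n = 5) in EOM control and 338 ± 337 in leg control, where leg control 1 read 932 and the other 4 read 136 to 281. Its EOM minus leg difference in controls was -1.55, or at least 2.92-fold (adjusted p = 0.0407), and in mdx -1.36 (0.0742). The control call was lost without leg control 1 (-1.08, adjusted p = 0.137), without leg control 1 and 4 (-1.22, 0.132), or without any of EOM control 1, 2, 4 and 5 and leg control 2 and 3. It was also lost with a floor of 100 (0.0576), no filter (0.0925), array weights (0.0561) and only the groups compared (0.0553). The mdx difference was called with array weights (0.0195), with the replicate block (0.0495), and without leg control 1 (0.0354), leg mdx 4 (0.0285) or leg control 1 and 4 (0.0386). Both probe sets had lower means in EOM. Since the dim one passed the filter only through leg arrays, its direction gives the bright one no independent support. The within-array ratio of Actn3, by its bright probe set, to Actn2 differed by -0.75 log2 units, EOM minus leg, in controls and by -1.25 in mdx. It restates the Actn3 difference together with the uncalled one of the dim Actn2 (0.12 in controls, 0.43 in mdx). Without leg control 1 and 4 the control differences were -0.25 for Actn3 and 0.13 for Actn2.

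Myoz1 encodes calsarcin-2, a fast fibre protein that links alpha-actinin with calcineurin at the Z-disc. It read 4480, 6172, 6483, 4443 and 3704 on EOM control arrays, 9952, 5699, 6333, 4282 and 8105 on EOM mdx, 9788, 13637, 12045, 13856 and 8323 on leg control, and 10525, 13172, 8540, 9694 and 10486 on leg mdx. Every EOM control array lay below every leg control array. EOM mdx spread more widely and overlapped leg mdx through EOM mdx 1. In controls Myoz1 was 2.29-fold lower in EOM (interval 1.70 to 3.08, limma adjusted p = 0.000257) under every alternative tried. In mdx it was 1.57-fold lower (log2 difference -0.65, adjusted p = 0.0303). That call was lost without EOM mdx 2 (0.0754), EOM mdx 3 (0.0595), EOM mdx 4 (-0.50, 0.0971), leg mdx 1 (0.0509), leg mdx 2 (0.0848) or leg mdx 5 (0.0523). The mdx effect was 0.42 in EOM (interval -0.01 to 0.85, adjusted p = 0.958) and -0.12 in leg (interval -0.55 to 0.30, adjusted p = 0.738).

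Ldb3 (ZASP or Cypher), a PDZ and LIM protein that binds alpha-actinin, overlapped in all 4 groups. Its signal was 654 ± 130 (SD, n = 5) in EOM control, 684 ± 253 in EOM mdx, 679 ± 60.7 in leg control and 579 ± 120 in leg mdx. EOM minus leg was -0.07 in controls (interval -0.50 to 0.36), the mdx effect in leg was -0.25 (interval -0.68 to 0.18) and no contrast was called. The Myoz1 to Ldb3 ratio within arrays differed by -1.13 log2 units, EOM minus leg, in controls and by -0.84 in mdx.

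Tcap (telethonin), the cap on the end of titin in the Z-disc, had a wide spread between arrays. It read 263, 64.4, 400, 563 and 322 on EOM control, 474, 284, 263, 410 and 131 on EOM mdx, 150, 141, 433, 120 and 84.1 on leg control, and 330, 458, 635, 181 and 461 on leg mdx. Leg control 3 stood with the mdx arrays, and leg mdx 4, at 181, lay within the control range. The mdx minus control difference in leg was 1.29 (SE 0.51, interval 0.24 to 2.34, unadjusted p = 0.0185), which missed the threshold after adjustment in limma (adjusted p = 0.0852). It passed without EOM control 2 (0.034), leg control 3 (1.66, 0.0238) or leg mdx 4 (1.55, 0.0468), and when arrays were centred on muscle fibre genes (1.70, 0.0192). Without leg control 1 and 4 it was 1.14 (0.24). EOM minus leg was 0.75 in controls (interval -0.30 to 1.80) and -0.42 in mdx (adjusted p = 0.646).

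**Figure D4:**
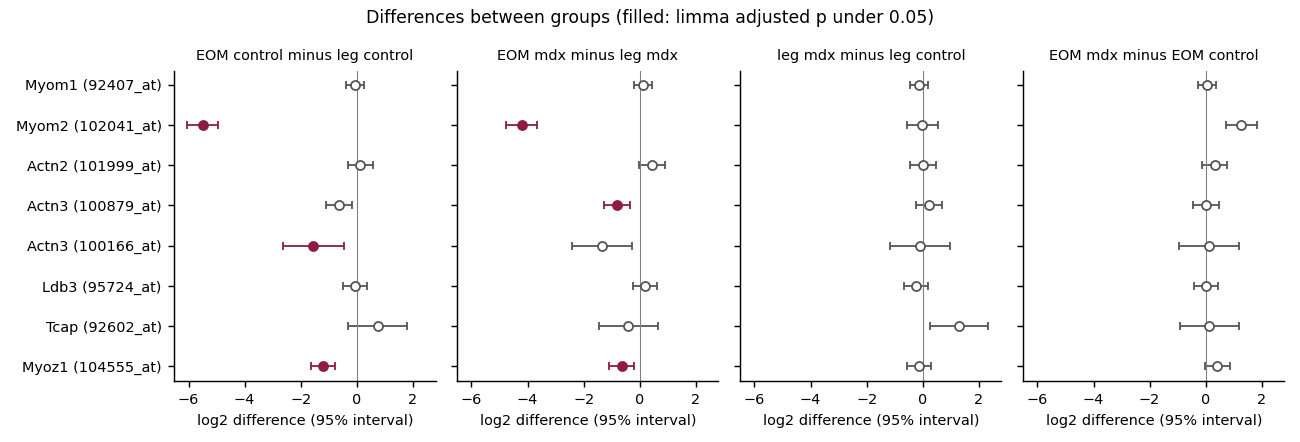
Log2 difference with its 95% interval for each member in 4 contrasts, filled where the limma adjusted p was under 0.05. Myom2, Myoz1 and both Actn3 probe sets lie below 0 between muscles in both genotypes. The bright Actn3 probe set is filled only in mdx and the dim one only in controls. None is filled for mdx against control.

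The members called between muscles were all lower in EOM, and none was called between genotypes. In controls, 2 of 7 genes, by their brightest probe set, were called lower in EOM (Myom2 and Myoz1) and 0 higher, where 17.7% of all tested probe sets were called and 7.41% were called lower. Their groups did not overlap for the same 2 genes, against 13.5% of all probe sets. In mdx, 3 of 7 were called lower (Myom2, Actn3 and Myoz1), where 18.1% were called and 8.83% were called lower, and groups did not overlap for Myom2 and Actn3, against 14.4%. The median log2 difference over the 7 genes was -0.07 in controls and -0.42 in mdx, beside 0.02 and 0.0008 over all tested. Myom2 passed the filter through its leg signal, so its call and its lack of overlap add no independent weight to these counts. Since the members were chosen with these arrays in view, the counts are given as a description.

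Between genotypes the calls by limma were 0 of 7 in leg muscle, where 17.9% of all tested probe sets were called, and 0 of 7 in EOM, where 0.0833% were. At an unadjusted p under 0.05 the count was 1 in leg (Tcap) and 1 in EOM (Myom2). No member had groups that did not overlap, against 13.6% of probe sets in leg and 1.15% in EOM. The median over the 7 genes was -0.02 in leg, beside -0.06 for all tested probe sets, and 0.13 in EOM, beside -0.02. In leg mdx the summed signal of 12 macrophage genes ran from 40283 to 51929, against 4409 to 6301 in leg control, and that of 6 fibroblast genes from 41411 to 50298, against 22619 to 25902. Their part in any leg difference was not tested. The 10 fast fibre genes, whose levels are relevant to Actn3 and Myoz1, summed to 49935 to 75349 in EOM control, 59520 to 108468 in EOM mdx, 53359 to 129933 in leg control and 40969 to 78164 in leg mdx, with all 4 groups overlapping. Pvalb of that list did part the muscles. It read 5488 to 6280 in EOM control and 5387 to 5923 in EOM mdx, against 14305 to 20213 in leg control and 10214 to 15402 in leg mdx. The other genes of the list overlapped between muscles in both genotypes. Mylpf was higher by its mean in EOM control, at 1312.9 against 769.5 in leg control. The 8 slow fibre genes summed to 33741 to 46966 in EOM control and 35746 to 55286 in EOM mdx. The leg sums were 3388 to 94719 in control and 21314 to 39439 in mdx. Among mdx arrays, Tnnc1 was 5685 to 6531 in EOM and 1524 to 3270 in leg. Tnni1 was 8508 to 14184 against 5662 to 7551, and Myl3 576 to 855 against 1912 to 4138. The other slow fibre genes overlapped between muscles in mdx, and every one did in controls. EOM arrays held more of the 4-gene smooth muscle list (4940 to 7193 in control) than leg control arrays (1452 to 3122), and in mdx 6596 to 9936 against 2470 to 3901. The 2 Schwann cell genes found of 4 listed summed to 5759 to 8071 in EOM control and 867 to 2087 in leg control. The 4 epithelium and gland genes summed to 4370 to 5347 in EOM control, 4968 to 6545 in EOM mdx and 711 to 1004 in leg mdx. In leg control they ran from 515 to 9574, the highest array being leg control 4, where the gland gene Bpifa2 read 8892. Krt14 of that list was under the floor on all EOM control arrays. The part of these lists in the differences between muscles was not tested.

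Other genes of the 2 lattices were read from lists of 48 genes, of which 24 were on the array under 1 symbol and 23 were tested. In controls 3 were called higher and 9 lower in EOM, where 17.7% of all tested probe sets were called and 7.41% called lower. In mdx 2 were called higher and 8 lower, beside 18.1% and 8.83%. In leg mdx 4 were called higher and 2 lower than in control, beside 17.9% called. In EOM mdx 0 of 23 were called by limma, beside 0.0833%, with 3 at an unadjusted p under 0.05. The lists' medians in these contrasts were -0.45, -0.09, -0.09 and 0.08, beside 0.02, 0.0008, -0.06 and -0.02 over all tested probe sets. Of the M-band and titin-linked list, 4 genes were tested, of the Z-disc list 19.

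Between muscles the called Z-disc genes were mostly lower in EOM. Pdlim7 (Enigma), a PDZ and LIM protein, was 1697 ± 350 (SD, n = 5) in EOM control and 4952 ± 820 in leg control, 2.93-fold lower (limma adjusted p = 8.2e-07), and 2.84-fold lower in mdx (1.17e-06). Capza2, a subunit of the protein that caps thin filament ends, was 2234 ± 140 against 4965 ± 772 in controls (4.88e-07), and 2257 ± 288 against 4160 ± 454 in mdx. Capn3, a titin-bound protease, was 2248 ± 401 against 4394 ± 986 in controls (0.00177). In mdx it was 2223 ± 356 against 2720 ± 768, with overlapping groups. Sqstm1 (p62), a partner of the titin kinase complex at the M-band, differed by -0.73 log2 units in controls (0.00677) but by 0.0008 in mdx (0.999). Actn1, a non-muscle alpha-actinin whose probe set is of a family-shared kind, was higher in control EOM at 717 ± 110 against 369 ± 74.4 (0.000266). In mdx Actn1 was 987 ± 132 in EOM and 1018 ± 248 in leg. In mdx, the LIM protein Fhl2 was higher in EOM, at 748 ± 52.7 against 479 ± 67.5 (0.0188, lost without leg mdx 2 at 0.0579), and Pdlim3 differed by -1.04 log2 units (0.000376). Both were also called in controls, Fhl2 with overlapping groups (0.89, 0.00197) and Pdlim3 without overlap (-0.91, 0.00157). Ankrd2, a muscle ankyrin repeat gene, differed by -1.29 in mdx (0.0388), with groups that did not overlap. That call was lost on leaving out any EOM mdx array or leg mdx 1, 3, 4 or 5, at up to 0.0947. It was also lost with no filter (0.107) and no intensity trend (0.0567). Without leg control 1 and 4, which are not in this contrast but share its estimate of spread, it was 2.99e-05 with the same difference. Of 3 thick and thin filament genes tested, 0 were called between muscles in controls, beside 17.7% of all tested probe sets. In mdx 1 was called higher and 1 lower in EOM, beside 18.1% called. The higher one was Acta1, named after its values were seen, at 12074 ± 2828 against 3733 ± 4349. Its log2 difference was 2.75, with overlapping groups. The lower one was Mybph, a myosin-binding protein, at 873 ± 208 against 3087 ± 533 (0.000397).

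Ankrd1, a stress-responsive ankyrin repeat gene, rose in leg mdx. Its signal was 1309 ± 402 (SD, n = 5) in leg mdx and 119 ± 60.8 in leg control, 11.5-fold higher (log2 difference 3.52, limma adjusted p = 6.33e-08), and held under every alternative. All leg mdx arrays read 832 or more, enough alone to pass the filter, while leg control reached at most 221 and EOM control at most 101. Ankrd1 thus entered the test largely through its leg mdx signal, and a large leg mdx difference was favoured by that filter. In EOM it was 231 ± 81.9 in mdx and 75.0 ± 23.0 in control, with groups that did not overlap (log2 difference 1.57, at least 2.98-fold), and the adjusted p of 0.074 missed the threshold. Actn1 was 1018 ± 248 in leg mdx, 2.75-fold higher (1.48e-06), and Capza1, another capping protein subunit, 1.71-fold higher (0.000622, though 0.0913 when centred on muscle fibre genes). Capn3 was lower in leg mdx, with a difference of -0.73 log2 units (0.0142), a call lost without leg control 1 and 4 (0.0738) and when centred on muscle fibre genes (-0.32, 0.845). The remaining calls, named after their values were seen, were Actn4, a non-muscle alpha-actinin (log2 difference 0.69, 0.00644), and Smyd1, a muscle methyltransferase of the M-band list whose groups overlapped (-0.76, 0.00544). Mybph was higher in leg mdx by 1.19 (0.015), which was 0.0683 with only the leg groups fitted and 0.66 (0.0212) without leg control 1 and 4. The mdx effect was larger in leg than EOM for Ankrd1 (1.95, adjusted p = 0.0123) and Actn1 (0.99, 0.0129, but 0.0572 without leg control 1 and 4). For Capza1 (0.70, 0.0491) and Bag3, a co-chaperone of the Z-disc (-0.50, 0.0404), leaving out single arrays ended the call for 16 and 15 of the 20 arrays, and the adjusted p reached 0.0983 and 0.0761. Without leg control 1 and 4 together it was 0.128 and 0.115.

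**Figure D5:**
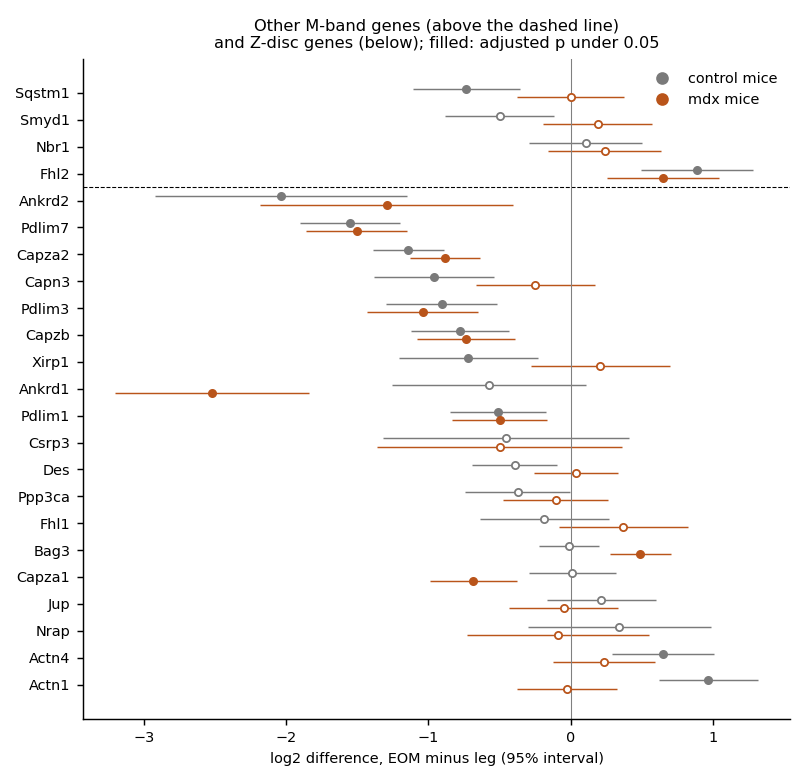
Log2 difference of EOM minus leg in control (grey) and mdx (orange) for the other tested genes of the M-band list (above the dashed line) and the Z-disc list (below it). Pdlim7 lies below 0 in both genotypes, and Ankrd1 lies furthest below 0 in mdx.

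The probe sets nearest to a member over all 20 arrays were found by the root mean square difference of log2 values, each centred on its own mean. Only tested probe sets with 1 symbol, other than the member's own, were compared. The nearest to Myom2 was Cacng1, the skeletal muscle calcium channel gamma subunit, at 0.94, where the median over those compared was 2.54. Its EOM minus leg difference was -3.66 log2 units in controls and -3.11 in mdx. The next were Atp1b2 (1.48) and Cd55 (1.53), and for Myoz1 the nearest were Cnbp and Ccdc6 (both 0.32, median 0.72). For Tcap they were Pafah1b3 and Cdkn2a (both 0.61, median 1.01). The measure describes these 20 arrays, which share their 4 groups.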

How the data were processed

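Total RNA of EOM and leg muscle from control and mdx mice was hybridised to single-colour Affymetrix arrays, 20 in 4 groups of 5. The authors deposited 1 linear intensity for each of 12654 probe sets on each array, including 66 control probe sets. No source used here names the software that made these values. The deposited intensities lie between 0.4 and 95476.8, and their 2% trimmed mean is 1500.1 on all arrays, so they were already scaled. Here each array was rescaled to a trimmed mean of 500, values under 50 were set to 50, before taking log2. Signals are printed as means ± SD without the floor, in arbitrary units; a fold with an array of the dimmer group at the floor is written as at least.

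Probe sets reaching 200 on at least 5 arrays (7204) were fitted in limma 3.58.1 under R 4.3.3 (lmFit, eBayes with intensity trend, 4 groups, 16 residual degrees of freedom). The 5 contrasts were mdx minus control within EOM and within leg, the difference between those effects, and EOM minus leg within each genotype, with Benjamini-Hochberg adjustment at 5% over all tested probe sets of a contrast. The fit was tested on simulated data. Contrasts share their control or mdx arrays and are not independent.

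Named are all members, with a gene counted by its brightest tested probe set. From lists of other M-band, Z-disc, filament and marker genes, up to 4 called genes per list and contrast whose groups did not overlap were named. Acta1, Actn4 and Smyd1 were added after their values were seen. The 3 nearest probe sets to members were found over 20 arrays, among tested probe sets with 1 symbol. Members, lists and rules were chosen with earlier results of these data known. Gene symbols came from the platform annotation, for 10276 probe sets with 1 symbol, 363 with several and 1949 with none; 10279 identifiers were found in a RefSeq table (GRCm38.p6) and 0 symbols changed. The early design's probe sets may not all measure their gene. Alternatives were quantile normalization, floors of 20 and 100, a pseudocount, filters, no trend, array weights, only the groups compared, centring on muscle fibre genes, a replicate block, the mean of a gene's probe sets, leaving out each array, and leaving out leg control 1 and 4.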

Additional observations from a re-analysis of the deposited data

Results flagged for a closer look

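A single array lay far from the rest of its group for 2 members. For the dim Actn3 probe set, leg control 1 read 931.9, and its gap to the nearest array was 0.817 of the group's range. For Tcap, leg control 3 read 432.8, with a gap of 0.811. Both gaps exceed Dixon's 95% critical value for 5 samples. In all 32 groups were examined, and chance flags about 1 in 20.

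The mdx effect on Myom2 was called different between muscles in the main fit. It was -1.28 log2 units, leg minus EOM (limma adjusted p = 0.0469), with 4 of 5 EOM mdx arrays above all EOM controls and EOM mdx 1 within their range, and with overlapping leg groups. The call was lost under 20 of 30 alternatives, among them 15 of the 20 single arrays left out and a floor of 100 (-0.54, 0.379). On 4 of 5 EOM control arrays Myom2 was under the floor, and it passed the filter through its leg signal.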

How the results depend on the processing

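Over the members' 40 results and 1238 pairs of result and setting, 1178 kept their side of the threshold, 39 lost the call and 21 gained one. No called value changed sign. Among the 1178, 61 uncalled values changed sign, 12 of them on centring on muscle fibre genes. In the main fit all had a log2 difference of 0.31 or less in size. After the change some were larger, such as 0.41 for Actn2 in leg mdx minus leg control on that centring. Members called in leg mdx against control went from 0 to 1 when arrays were centred on muscle fibre genes, and from 0 to 1 as arrays were left out. In EOM mdx the count went from 0 to 1 with a floor of 20 and to 1 with array weights, and ranged 0 to 1 as arrays were left out. For the difference of mdx effects the count of 1 went to 0 with a floor of 100, no filter, no intensity trend, a replicate block and without leg control 1 and 4, and ranged 0 to 1 as arrays were left out. Of other Z-disc and M-band genes, the EOM mdx count of 0 was 1 without leg control 1 and 4, and 0 to 1 as arrays were left out. Their difference count of 4 was 2 with no intensity trend and 1 without leg control 1 and 4, and 2 to 4 as arrays were left out. Between muscles the counts held within 1.5 times. The causes were not tested. Deviations of same-numbered arrays correlated between -0.084 and 0.228, with 4 of 30 pairs above 0.1, so the numbers were not taken as pairs; the replicate block gave Myom2's difference an adjusted p of 0.0657. Centring on muscle fibre genes moved the median of all probe sets from -0.06 to 0.35 in leg and from -0.02 to -0.35 in EOM. Dim signal limits Tcap, Actn2 and, in EOM, Myom2.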
